A study of Mus musculus with 12 samples.

Results

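Chemokine receptors are G protein-coupled receptors that steer cells along gradients of small secreted proteins, the chemokines, and thymocytes use them to move between the cortex and the medulla as they mature. Their set changes from stage to stage, and the ligands are made by the stroma of different thymic zones. The 9 receptors described here, Ccr9, Ccr7, Cxcr4, Ccr4, Ccr6, Ccr8, Cxcr3, Cxcr5 and Cxcr6, were taken by gene name from an RNA-seq table of 24421 genes, and all 9 were found in it. CXCR4, the receptor for CXCL12, and CCR9, the receptor for CCL25, act in the cortex and in the progression of early thymocytes, whereas CCR7, the receptor for CCL19 and CCL21, and CCR4, the receptor for CCL17 and CCL22, are known for bringing positively selected thymocytes to the medulla. CCR8 binds CCL1, CXCR3 binds CXCL9 and CXCL10, and CXCR6 binds CXCL16, and these 3 are best known from effector and innate-like lymphocytes. CCR6 binds CCL20 and CXCR5 binds CXCL13, and both are best known from other lymphocytes, among them B cells.

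The libraries came from embryonic thymocytes of C57BL/6 mice, labelled E16.5 in the sample labels and E17.5 in the treatment protocol. All animals lacked Rag1, which is needed to assemble T cell receptor genes, and in its absence thymocytes halt at the CD25+ double-negative stage. The control genotype was Rag1KOBcl6fl/flLckCre- and the knockout (KO) genotype was Rag1KOBcl6fl/flLckCre+, in which Cre driven by the Lck promoter of T lineage cells acts on loxP-flanked Bcl6. The controls carried no Cre, so loss of Bcl6 and presence of Cre cannot be told apart. CD25+ thymocytes were sorted from unstimulated thymi. ISP cells (immature single positive, CD4-CD8+) and DP cells (double positive, CD4+CD8+) were sorted from thymi treated on filters for 2 days with 1 µg/ml of anti-CD3, which stands in for the missing receptor signal. Any difference between CD25 and the other populations therefore joins stage, stimulation and culture, which cannot be told apart. Each of the 6 groups of population and genotype had 2 libraries, 12 in all. The labels do not say whether these came from separate embryos or cultures, so p-values measure the spread between libraries, which may be technical.

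Reads recovered from the values of the genes in the table summed to between 9657633 and 14227980 per library. They are the smallest whole numbers that fit the values, so these sums are lower limits and not the sequencing depth. Between 10241 and 10568 genes reached 1 RPKM (reads scaled to gene length and library size). Of the 8 anti-CD3 libraries, 6 carry a sequencing library name that gives another population or genotype than the sample title. Titles were used throughout. Grouped by library name instead, no receptor passed from ISP to DP, and the KO minus control difference of Ccr9 was 1.71 in ISP and 2.04 in DP on the log2 scale, the reverse of its sign by title. By title, the stage markers fell where the sort would place them: the CD25 libraries had 1.03 to 1.78 RPKM of Cd4, against 13.9 to 20.5 for ISP and 191 to 344 for DP. Cd8a was 1.29 to 2.16, 230 to 302 and 774 to 873 RPKM, and Il2ra, which encodes CD25, was 538 to 603, 24.2 to 44.7 and 14.5 to 33.0 RPKM in the same order. Under the library names, the 4 anti-CD3 libraries named control would have the low Cd4 levels and the 4 named KO the high ones, whatever population the name gives. Genotype has no such check. Bcl6 itself, as a sum over the gene, was 1.82 and 1.49 RPKM against 2.01 and 1.63 in the CD25 libraries (control against KO), 11.9 and 11.6 against 18.9 and 25.1 in the ISP libraries, and 72.5 and 70.0 against 87.7 and 111 in the DP libraries. It was thus higher, not lower, in the ISP and DP libraries labelled KO. The labels do not say which exons are flanked, and a value summed over a gene does not show the deletion. Below, KO and control mean the libraries labelled so.

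Summed over the 9 receptors, the CD25 libraries had 48.5 to 52.7 RPKM, the ISP libraries 144 to 197 and the DP libraries 239 to 408. Cxcr4 was the largest single share in CD25 libraries, at 48.8 to 55.9% of the sum. Ccr9 held 19.5 to 24.3% there, 40.3 to 56.1% at the ISP stage and 82.3 to 90.6% at the DP stage. The profile thus went from one led by Cxcr4 in CD25 libraries to one made up mostly of Ccr9 in DP libraries. At or above 1 RPKM were 6 or 7 receptors in the CD25 libraries, 7 in all ISP libraries and 4 to 6 in the DP libraries. The plot of receptor levels by library shows 3 courses: a stepwise rise (Ccr9), an ISP maximum (Ccr7, Ccr8, Cxcr3, Cxcr6), and a flat or shallow course (Cxcr4, Ccr4).

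**Figure D1:**
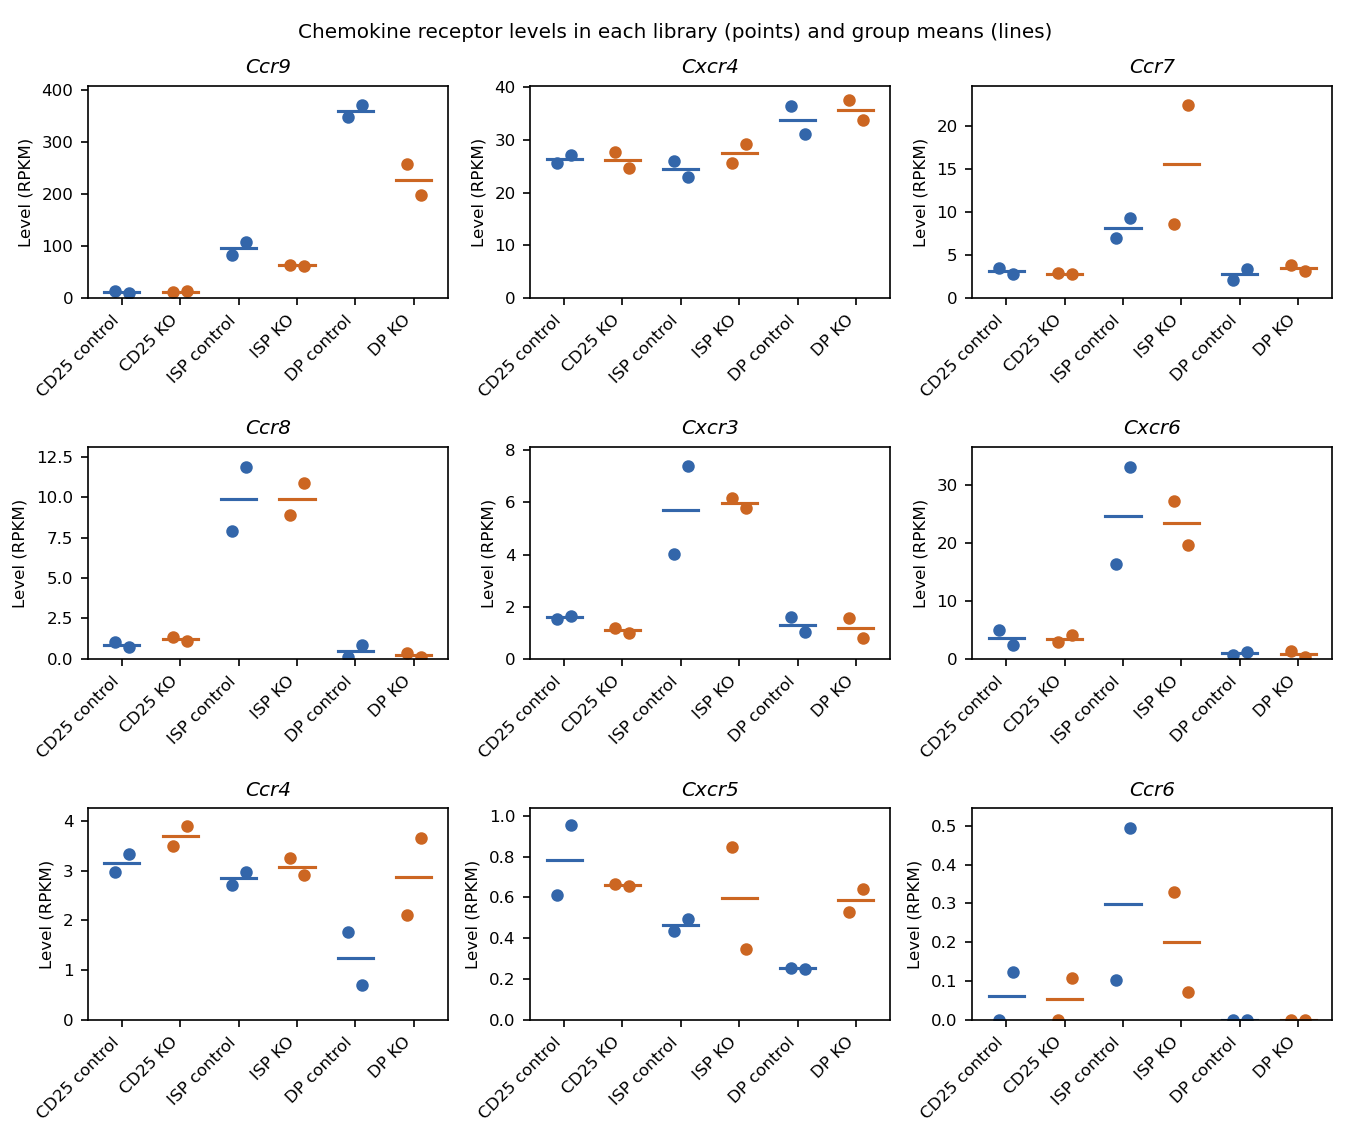
Level of each of the 9 receptors (RPKM, linear axis from 0, scaled per panel) in the 6 groups. Points are the 2 libraries of a group (blue control, orange KO) and lines are their means; Ccr9 has 9.44 to 12.4 RPKM at the CD25 stage and 197 to 370 RPKM at the DP stage, whereas Ccr8, Cxcr3 and Cxcr6 are highest in the 4 ISP libraries.

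Ccr9, on chromosome 9 (GRCm38, chr9:123678439-123784330, plus strand), was the most abundant of the receptors from the ISP stage on. Its level was 12.4 and 9.44 RPKM against 11.7 and 12.3 in the CD25 libraries (control against KO), 82.3 and 108 against 63.0 and 61.8 in the ISP libraries, and 348 and 370 against 258 and 197 in the DP libraries. The 3 populations did not overlap. The mean over 4 libraries was 6.89-fold higher in ISP than in CD25 and 3.72-fold higher again in DP than in ISP, a 25.6-fold rise from CD25 to DP. On the log2(RPKM + 1) scale on which all tests were made, the ISP minus CD25 difference was 2.65 (SE 0.10, limma adjusted p = 9.19e-10) and the DP minus ISP difference was 1.87 (SE 0.10, limma adjusted p = 1.13e-08). Both comparisons use the same ISP libraries. The genes with the most similar course over the 12 libraries were Foxo1 (r = 0.998), a transcription factor gene, Rmnd5a (r = 0.997), which encodes a ubiquitin ligase subunit, and Ckb (r = 0.996), which encodes a creatine kinase. In the control groups the mean of Rmnd5a went from 28.1 RPKM (CD25) over 136 (ISP) to 410 (DP), and that of Ckb from 1.70 over 26.4 to 109. These genes were chosen by their r with Ccr9 over the same libraries, so a course shared with Ccr9 in DP KO follows from that choice. The DP KO means were 277 RPKM for Rmnd5a, 76.9 for Ckb and 25.9 for Foxo1, which had 30.5 in DP control.

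Cxcr6 lies 22144 bases downstream of Ccr9 (chr9:123806475-123811760, plus strand), inside the span of Fyco1, which is read from the opposite strand, and the pair followed different courses. Cxcr6 was 4.93 and 2.32 RPKM against 2.91 and 4.09 in the CD25 libraries (control against KO), 16.3 and 33.2 against 27.3 and 19.7 in the ISP libraries, and 0.703 and 1.21 against 1.41 and 0.333 in the DP libraries. All 4 ISP libraries stood above all others and all 4 DP libraries below all others, the reverse of the order that Ccr9 takes from ISP to DP. Cxcr6 rose 6.79-fold from CD25 to ISP (log2 difference 2.45, SE 0.26, limma adjusted p = 4.49e-06) and fell 26.4-fold from ISP to DP (log2 difference -3.70, SE 0.26, limma adjusted p = 7.59e-08).

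The stretches before the start sites of these neighbours are shown to set the divergent pair side by side. Both are from RefSeq (GRCm38.p6), on the plus strand, cover the part of the 250 bases before the RefSeq start that lies outside the gene's annotated exons (GENCODE M21), and carry in capitals the matches to CANNTG, the E-box that basic helix-loop-helix proteins such as the thymocyte E proteins bind, and to TGTGGT or its complement ACCACA, the core bound by RUNX proteins. The first is chr9:123766961-123767168 and the second is chr9:123806227-123806474.
Ccr9: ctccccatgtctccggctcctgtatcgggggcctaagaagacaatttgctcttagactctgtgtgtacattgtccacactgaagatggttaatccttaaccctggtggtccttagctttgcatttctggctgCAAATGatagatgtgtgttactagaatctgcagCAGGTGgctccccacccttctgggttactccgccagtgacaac
Cxcr6: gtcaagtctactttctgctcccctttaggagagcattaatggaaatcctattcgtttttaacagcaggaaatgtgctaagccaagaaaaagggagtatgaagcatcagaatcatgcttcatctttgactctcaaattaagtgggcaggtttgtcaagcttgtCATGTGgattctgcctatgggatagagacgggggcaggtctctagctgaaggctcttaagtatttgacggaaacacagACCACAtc
The Ccr9 window held 2 E-box matches, CAAATG and CAGGTG, 118 and 85 bases before the start, and no TGTGGT match on either strand. The Cxcr6 window held 1 of each, CATGTG 88 bases and ACCACA 10 bases before the start. E-box letters occur in 66.2% and TGTGGT letters in 14.0% of the 250-base windows before all 32851 RefSeq starts, both strands searched.

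The same search covered 7 of the 9 receptors, and Ccr7 and Cxcr5 had no entry. Of the other receptors highest in ISP, the Cxcr3 window held 1 match to each of these motifs, CACCTG and ACCACA, and the Ccr8 window held neither. Only the first 128 bases of the Cxcr3 window lie before its annotated exons. Both matches, 116 and 110 bases before the RefSeq start, fall after that part. The Ccr4 window held 2 E-box matches, the Cxcr4 window held none, and Ccr6 has 2 listed starts. TTCNNNGAA, the palindrome of STAT proteins, was found only in a Ccr6 window, which held 2 matches, against 7.02% of all windows with a match. TTCCTAGAA, a core bound by BCL6, and CCACGTG, an E-box variant that overlaps CANNTG, were found in no window of these 7 receptors, against 0.347% and 3.21% of all windows. A match describes letters only, and none says only that these letters are not in this window.

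Ccr8 (chr9:120092114-120094906, plus strand) was also highest in ISP. It was 1.02 and 0.744 RPKM against 1.35 and 1.09 in the CD25 libraries (control against KO), 7.92 and 11.9 against 8.90 and 10.9 in the ISP libraries, and 0.0822 and 0.850 against 0.373 and 0.0910 in the DP libraries. Every ISP library exceeded every other library, CD25 and DP libraries overlapped, unlike those of Cxcr6, and the DP values rest on 1 to 12 reads each. The rise from CD25 to ISP was 9.41-fold (log2 difference 2.40, SE 0.18, limma adjusted p = 2.03e-07) and the fall from ISP to DP was 28.4-fold (log2 difference -3.04, SE 0.18, limma adjusted p = 1.61e-08).

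Cxcr3 (chrX:101731535-101734269, minus strand) was 1.52 and 1.66 RPKM against 1.20 and 0.971 in the CD25 libraries (control against KO), 4.01 and 7.41 against 6.16 and 5.79 in the ISP libraries, and 1.59 and 1.02 against 1.55 and 0.784 in the DP libraries. Like Ccr8 and unlike Cxcr6, it had CD25 and DP libraries that overlapped: their log2 difference was -0.07 (SE 0.17, limma adjusted p = 0.714). It rose 4.37-fold from CD25 to ISP (log2 difference 1.54, limma adjusted p = 6.04e-06) and fell 4.72-fold from ISP to DP (log2 difference -1.61, limma adjusted p = 2.80e-06).

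Ccr7 (chr11:99144196-99155077, minus strand) was also highest in ISP, with 1 library far above the rest. It was 3.46 and 2.83 RPKM against 2.88 and 2.75 in the CD25 libraries (control against KO), 7.00 and 9.25 against 8.60 and 22.5 in the ISP libraries, and 2.12 and 3.36 against 3.80 and 3.09 in the DP libraries. The second ISP KO library, at 588 reads, stood apart from the other 3 ISP libraries, which had 195 to 223 reads. Ccr7 rose 3.98-fold from CD25 to ISP (log2 difference 1.56, SE 0.22, limma adjusted p = 6.62e-05) and fell 3.83-fold from ISP to DP (log2 difference -1.53, SE 0.22, limma adjusted p = 5.63e-05). Leaving out any 1 library kept both calls, with differences between 1.23 and 1.88 and between -1.85 and -1.21.

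Across the 12 libraries these 4 receptors moved in parallel. On log2(RPKM + 1) values, Pearson's r was 0.973 between Ccr8 and Cxcr6, 0.936 between Ccr8 and Cxcr3, 0.924 between Cxcr3 and Cxcr6, and 0.821 to 0.890 between Ccr7 and these 3. The 12 points share 3 populations, so these coefficients mostly describe the common ISP maximum. The genes with the most similar course over the same 12 libraries were Il18rap (r = 0.990), Klra5 (r = 0.990) and Klrk1 (r = 0.988) for Ccr8, and Klrb1c (r = 0.982), Ccl5 (r = 0.982) and Cd200r2 (r = 0.981) for Cxcr3. Klrk1 and Klrb1c encode NK cell receptors. For Cxcr6 they included Rhebl1 (r = 0.982) and Pglyrp1 (r = 0.974), and for Ccr7 Plk3 (r = 0.942), Tagap (r = 0.935) and Ifng (r = 0.933).

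Most marker genes of NK and innate lymphoid cells moved with this group. The summed level of the 10 marker genes Ncr1, Klrd1, Klrb1c, Klrk1, Klre1, Eomes, Nkg7, Gzma, Tyrobp and Il2rb lay at 593 to 783 RPKM for CD25, 1050 to 1280 for ISP and 113 to 217 for DP. Most of each sum came from Gzma (means 420, 880 and 132 RPKM) and Nkg7 (219, 131 and 13.6 RPKM). Of the 9 tested, 8 rose and 1, Nkg7, fell from CD25 to ISP, and all 9 fell from ISP to DP. Among all genes, 33.1% passed as higher in the first step and 35.0% as lower in the second. Klre1 was at 0 in both CD25 control libraries and Eomes at 0 in both DP control libraries; the others were above 0 in at least 1 library of every group. The sorting gates did not include an NK marker, and the part of such cells in the ISP levels of Ccr8, Cxcr3, Cxcr6 and Ccr7 was not tested. In bulk RNA, fewer cells carrying a receptor and less RNA per cell cannot be told apart.

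Cxcr4 (chr1:128588199-128592293, minus strand) was the steadiest of the receptors. It was 25.7 and 27.1 RPKM against 27.7 and 24.7 in the CD25 libraries (control against KO), 26.0 and 22.9 against 25.7 and 29.3 in the ISP libraries, and 36.5 and 31.1 against 37.6 and 33.7 in the DP libraries. CD25 and ISP overlapped (log2 difference -0.02, SE 0.07, limma adjusted p = 0.816), and all DP libraries lay above them. The DP mean was 1.34-fold that of ISP (log2 difference 0.41, SE 0.07, limma adjusted p = 0.000278) and 1.32-fold that of CD25 (log2 difference 0.39, limma adjusted p = 0.000361). The genes closest to its course were Usp12 (r = 0.943), Abl2 (r = 0.939) and Esrp1 (r = 0.936), all lower than the r of 0.996 to 0.998 that Ckb, Rmnd5a and Foxo1 reached with Ccr9 over the same 12 libraries.

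Ccr4 (chr9:114490316-114504916, minus strand) was low throughout. It was 2.97 and 3.33 RPKM against 3.49 and 3.90 in the CD25 libraries (control against KO), 2.72 and 2.98 against 3.25 and 2.91 in the ISP libraries, and 1.77 and 0.705 against 2.10 and 3.66 in the DP libraries. The DP control libraries were the lowest, and the first DP KO library, at 2.10 RPKM, also lay below all CD25 and ISP libraries. The DP libraries together spanned a wider range than all CD25 and ISP libraries. DP was below CD25 by 0.62 on the log2 scale (difference -0.62, SE 0.16, limma adjusted p = 0.00348). The DP minus ISP difference of -0.46 (SE 0.16, limma adjusted p = 0.0198) no longer passed without the second DP control library (-0.29, limma adjusted p = 0.0905), without the first DP KO library (-0.32, limma adjusted p = 0.0917), or without either of 2 ISP libraries, the second control (-0.44, limma adjusted p = 0.0551) and the first KO (-0.43, limma adjusted p = 0.0567).

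Cxcr5 and Ccr6 did not reach 1 RPKM in any library, so the main fit did not test them. With no filter on low values, Ccr6 passed in DP minus ISP (log2 difference -0.31, limma adjusted p = 0.0347). In that fit Cxcr5 passed in DP minus CD25 (log2 difference -0.29, limma adjusted p = 0.0392). Their other comparisons did not pass. Cxcr5 (chr9:44511787-44561877, minus strand) was 0.613 and 0.954 RPKM against 0.667 and 0.654 in the CD25 libraries (control against KO), 0.434 and 0.492 against 0.845 and 0.347 in the ISP libraries, and 0.254 and 0.250 against 0.528 and 0.643 in the DP libraries. These values rest on 7 to 29 reads each, and the DP control libraries were the lowest, at 7 and 8 reads. Ccr6 (chr17:8236043-8257141, plus strand) had 26 reads over the 4 ISP libraries, 6 over the 4 CD25 libraries and 0 over the 4 DP libraries. It was not detectable in DP at this depth, where a count of 0 allows up to 3 reads. That limit covers counting error only, since reads without molecular identifiers are not independent molecules.

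Most genes tested changed between the populations, and the receptors' counts are read against that background. From CD25 to ISP, 5 of the 7 tested receptors rose and none fell, while 63.9% of all 11303 genes tested passed, 33.1% as higher and 30.9% as lower. From ISP to DP, 2 rose and 5 fell, against 70.6% of all genes, 35.6% higher and 35.0% lower. The libraries of the populations did not overlap for 5 receptors from CD25 to ISP and for 6 from ISP to DP, against 56.3% and 58.5% of all genes. From CD25 to DP, 2 rose (Ccr9 and Cxcr4) and 3 fell (Ccr4, Ccr8 and Cxcr6), against 75.7% of all genes, 37.3% higher and 38.4% lower, and 3 did not overlap, against 64.1%. The median log2 difference of the 7 was 1.56 from CD25 to ISP and -1.53 from ISP to DP, beside 0.01 for all genes in both. The values had equal medians of ratios in all libraries, so a median near 0 for all genes was close to fixed by that scaling. The difference plot sets these changes beside the genotype differences on a narrower scale.

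**Figure D2:**
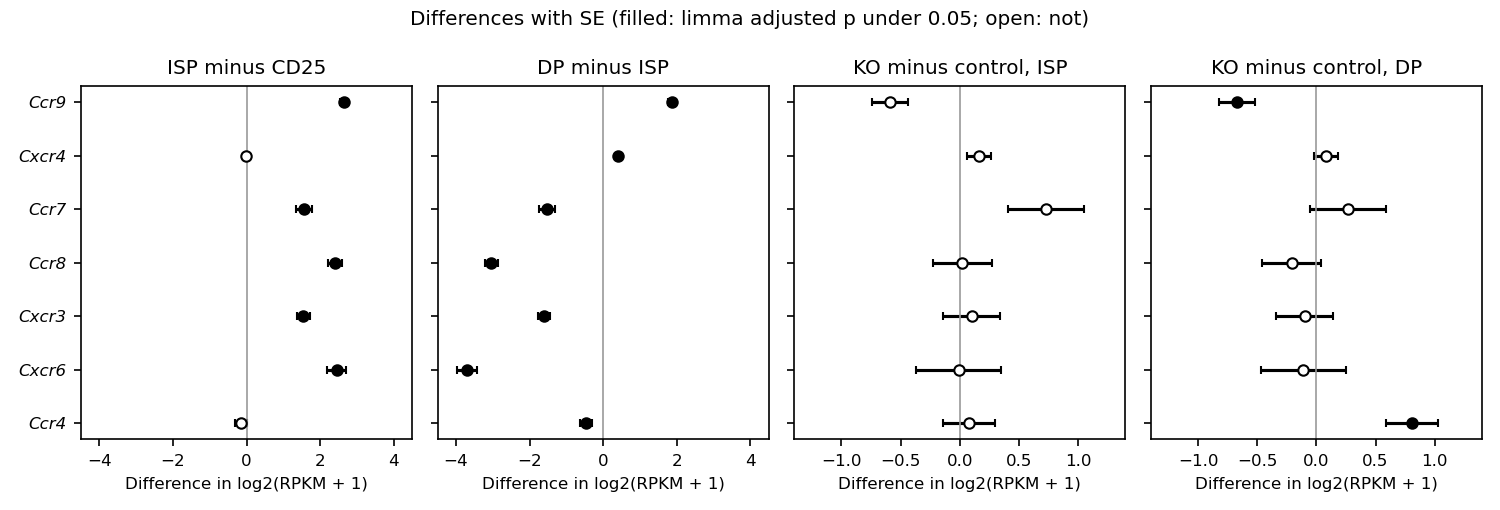
Difference in log2(RPKM + 1) with its SE (bars) for the 7 tested receptors in 4 comparisons; filled points have a limma adjusted p under 0.05 and open points do not, and the genotype panels have a narrower axis. Ccr9 is the only one of the 7 to rise at both steps by over 1, Ccr8 and Cxcr6 fall furthest from ISP to DP (-3.04 and -3.70), and in DP KO only Ccr9 (-0.67) and Ccr4 (0.81) are filled.

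Genotype was compared within each population. In CD25 cells none of the 7 tested receptors passed, and 0.0188% of the 10636 genes tested did (2 genes by limma, 972 at an unadjusted p under 0.05). The receptors' log2 differences lay between -0.31 (Cxcr3) and 0.24 (Ccr8), with limma adjusted p from 0.622 to 0.999. For Ccr4, Ccr8 and Cxcr3 the libraries of the 2 genotypes did not overlap, which was so for 39.7% of 11303 genes in this comparison.

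In ISP cells none of the 7 passed either, against 0.354% of all genes (40 of 11303 by limma, 1494 at an unadjusted p under 0.05). Ccr9 gave the smallest p: its KO libraries, at 63.0 and 61.8 RPKM, lay below its control libraries, at 82.3 and 108, a 1.53-fold lower mean with a log2 difference of -0.59 (SE 0.15, limma adjusted p = 0.103). With limma-voom on recovered reads the difference was again -0.59 and passed (limma adjusted p = 0.0238). It was the 1 receptor of 7 whose genotypes did not overlap in ISP, against 45.2% of all genes. The Ccr7 difference of 0.73 (SE 0.32, limma adjusted p = 0.347) turned on 1 library: it was 0.08 without the second ISP KO library and 1.38 without the first (limma adjusted p = 0.0296). Ccr8, Cxcr3, Cxcr6, Cxcr4 and Ccr4 had differences from -0.01 to 0.16.

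In DP cells 2 of the 7 passed, Ccr9 lower and Ccr4 higher in KO, against 21.9% of all genes, 7.78% as lower and 14.1% as higher. Ccr9 was 359 ± 15.5 RPKM (SD, n = 2) in control and 227 ± 43.3 in KO, 1.58-fold lower, with no overlap (log2 difference -0.67, SE 0.15, limma adjusted p = 0.00883). The call was lost without the second DP control library (-0.62, limma adjusted p = 0.0574) and without the second DP KO library (-0.47, limma adjusted p = 0.0970). Ccr4 was 1.24 ± 0.755 RPKM (SD, n = 2) in control and 2.88 ± 1.10 in KO, 2.33-fold higher, and the closest libraries stood at 1.77 and 2.10 (log2 difference 0.81, SE 0.22, limma adjusted p = 0.0241). That call too was lost without the second DP control library (0.46, limma adjusted p = 0.205), without the second DP KO library (0.51, limma adjusted p = 0.226), and with no filter on low values (limma adjusted p = 0.0765). The size of this low gene's difference depends on the pseudocount, and was 1.23 with a pseudocount of 0.1. Genotypes did not overlap for these 2 receptors of 7, against 62.3% of all genes. The other 5 had log2 differences from -0.21 to 0.27 (limma adjusted p 0.590 to 0.857).

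The genotype difference itself was compared between DP and ISP. None of the 7 receptors passed, against 4.19% of all genes (474 by limma, 2441 at an unadjusted p under 0.05). For Ccr9 the DP difference minus the ISP difference was -0.08 (SE 0.21, limma adjusted p = 0.874), so the 1.58-fold and 1.53-fold lower means were not told apart. For Ccr4 it was 0.73 (SE 0.32, limma adjusted p = 0.211), so its higher level in KO was not shown to be particular to DP.

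Other markers differed between the genotypes in DP, and Lyz2 did so in ISP as well. The sum of 15 myeloid and dendritic genes was 28.6 and 19.7 RPKM against 84.4 and 93.7 in the DP libraries (control against KO) and 33.9 and 31.7 against 68.6 and 80.1 in the ISP libraries. In ISP 1 of 12 tested was higher in KO and none lower, beside 0.354% of all genes called. That gene was Lyz2, at 35.1 RPKM in ISP KO against 5.11 in ISP control (log2 difference 2.55, limma adjusted p = 0.0189). Of 12 tested in DP, 5 were higher in KO and none lower, beside 14.1% and 7.78% of all genes, Lyz2 among them at 54.5 against 9.26 RPKM (log2 difference 2.51, limma adjusted p = 0.00112), while Cd14 was at 0 in both DP control libraries and Siglech in both DP KO libraries. Of the NK and innate lymphoid markers, 2 of 9 tested were higher in DP KO and none lower: Tyrobp, an adaptor of myeloid and NK cells, at 15.5 against 5.72 RPKM (log2 difference 1.30, limma adjusted p = 0.00031), and Gzma at 166 against 98.3 (0.74, limma adjusted p = 0.000993). The summed level of all 10 markers was 127 and 113 RPKM against 179 and 217 (control against KO), and Gzma made up most of it. The other 7 tested were not called, and the median log2 difference of the 9 was -0.04, beside 0.0 for all genes. Cd4 was 220 RPKM in DP KO and 341 in DP control (log2 difference -0.64, limma adjusted p = 0.0253), and Il2ra was 17.8 and 28.6 (log2 difference -0.66, limma adjusted p = 0.0127), though neither call held without the second DP KO library (limma adjusted p = 0.224 and 0.130) or with no filter on low values (limma adjusted p = 0.0844 and 0.0531). The part of these cells and of maturity within the DP gate in the Ccr9, Ccr4 and Ccr2 differences was not tested.

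The genes around Ccr9 and Cxcr6 were compared with them, since counts of overlapping genes can share reads where strand is not used, and strand use is not given in the sources used here. Lztfl1, a gene of ciliary trafficking read from the opposite strand, lies within the GENCODE M21 span of Ccr9 and shares no exon base with it. The RefSeq start of Ccr9 used above, after base 123767210, lies beyond the end of Lztfl1 at base 123717697. Which gene model the values used is not given. Lztfl1 rose 2.11-fold from ISP to DP (log2 difference 0.99, limma adjusted p = 3.87e-07) and was 22.6 RPKM in DP KO against 37.2 in DP control (log2 difference -0.70, limma adjusted p = 0.00215). Fyco1, which encodes an autophagosome transport adaptor and whose span holds Cxcr6, shares no exon base with Cxcr6 either and went the opposite way to it from ISP to DP, rising 2.24-fold (log2 difference 0.94, limma adjusted p = 6.10e-07). In DP, Fyco1 was 5.87 RPKM in KO and 8.90 in control (log2 difference -0.53, limma adjusted p = 0.00861), a call that was lost without the first DP control library (limma adjusted p = 0.0665) or the second DP KO library (0.0844). Of 10260 exon bases of Ccr9 in GENCODE M21, 1932 are shared with AC165425.1 on the opposite strand, 269 with Gm17200 and 22 with Slc6a20a. Under that gene model, part of the Ccr9 value could be counted to another gene. The values may rest on a shorter model of Ccr9. In the first CD25 control library 1 read was 0.0159 RPKM for Ccr9 and 0.0384 for Cxcr4. That gap is smaller than 10260 against 1808 exon bases would give. Bcl9l shares 110 of the 3332 exon bases of Cxcr5, and the other 7 receptors share none.

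**Figure D3:**
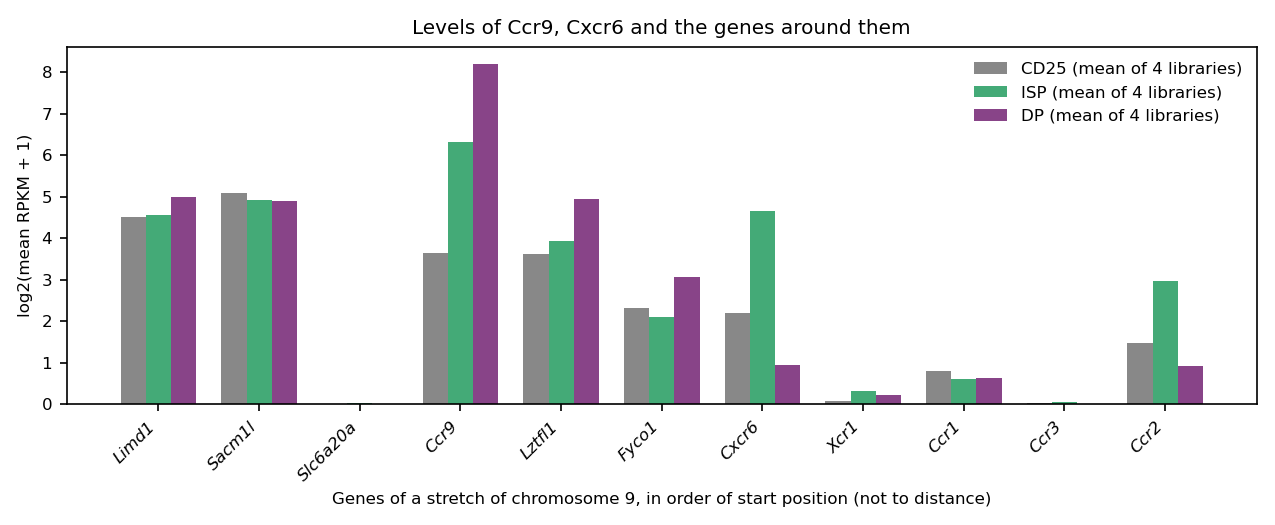
Level of Ccr9, Cxcr6 and their neighbours on chromosome 9 as log2 of the population mean RPKM plus 1 (bars from 0, means of 4 libraries), in order of start position and not to distance. Ccr9, Lztfl1 and Fyco1 are highest in DP (293, 29.9 and 7.39 RPKM), whereas Cxcr6 and Ccr2 are highest in ISP (24.2 and 6.83 RPKM).

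Of 11 other chemokine receptors, 3 reached the filter. Ccr2, the receptor for CCL2, averaged 1.79 RPKM for CD25, 6.83 for ISP and 0.906 for DP (log2 differences 1.49 and -2.11, limma adjusted p = 1.14e-07 and 3.72e-09). It thus had the ISP maximum of Cxcr6, which lies on the same stretch of chromosome 9. Ccr2 was also higher in DP KO, at 1.48 against 0.332 RPKM (log2 difference 0.89, limma adjusted p = 0.00193), the 1 call among the 3 there, against 14.1% of all genes as higher. The part of the myeloid genes that were also higher in DP KO (Lyz2 at 54.5 against 9.26 RPKM) in this difference was not tested. Ccrl2, an atypical receptor counted in this list, fell 2.80-fold from CD25 to ISP (1.36 to 0.487 RPKM, log2 difference -0.66, limma adjusted p = 0.0057). A separate list of Ackr1, Ackr2, Ackr3, Ackr4 and Cmklr1 had no gene that reached the filter.

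Of 16 ligands of the 9 receptors, 5 reached the filter. From CD25 to ISP 1 was higher and 2 were lower, beside 33.1% and 30.9% of all genes. From ISP to DP 1 was lower, beside 35.0% of all genes, and in DP KO 1 was higher, beside 14.1%. Cxcl10, a ligand of CXCR3, had its highest mean at the ISP stage, with overlapping libraries and means of 0.791, 2.47 and 0.861 RPKM from CD25 to DP (log2 differences 0.90 and -0.91, limma adjusted p = 0.00169 and 0.00122). In DP it was 1.52 RPKM in KO against 0.198 in control (log2 difference 1.07, limma adjusted p = 0.0189), a call that was lost without any 1 of the 4 DP libraries (limma adjusted p 0.0593 to 0.0883, differences 0.91 to 1.23) and with no filter on low values (limma adjusted p = 0.0585). Ccl8, a ligand of CCR8 in mice, had a 2.21-fold lower mean in ISP than in CD25 (log2 difference -0.86, limma adjusted p = 0.00372). The low values were those of ISP KO, at 0.148 and 0.149 RPKM on 2 reads in all. The ISP control libraries, at 2.01 and 2.22 RPKM, lay within the CD25 range of 1.68 to 3.68. Ccl1, the other ligand of CCR8, fell 5.31-fold (log2 difference -1.26, limma adjusted p = 0.0209), but its call was lost without the first CD25 control (-1.23, limma adjusted p = 0.055), the first CD25 KO (-0.64, 0.0566), the first ISP control (-0.97, 0.0887) or the second ISP KO library (-1.09, 0.0722), and also by limma-voom (limma adjusted p = 0.105), with a pseudocount of 0.1 (0.184) and with no filter (0.0702). Ccl25, the ligand of CCR9, averaged 4.56 RPKM for CD25, 5.31 for ISP and 4.84 for DP and passed in neither step (limma adjusted p = 0.0944 and 0.278).

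Downstream signalling genes moved both ways. Of 40 listed, 39 were in the table and 36 were tested. From CD25 to ISP 14 rose and 13 fell (median log2 difference 0.00), and from ISP to DP 17 rose and 7 fell (median 0.12), beside 33.1% higher and 30.9% lower of all genes at the first step and 35.6% and 35.0% at the second. Rgs10 and Rgs14, regulators that shorten G protein signalling, and Arrb2, an arrestin that takes part in receptor internalisation, were among the rises to ISP, at 3.13-fold, 1.73-fold and 2.29-fold. Rgs14 rose a further 3.01-fold to DP, Dock2, an exchange factor for RAC needed for lymphocyte migration, 1.99-fold, and Vav1, another exchange factor, 1.60-fold. In DP, 4 were higher and 5 lower in KO, beside 14.1% and 7.78% of all genes, and Dock2 had the smallest p, at 51.4 against 75.8 RPKM (log2 difference -0.56, limma adjusted p = 0.00247).

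Of 8 other receptors that position thymocytes, 7 were tested, with 2 rising and 3 falling from CD25 to ISP and 1 rising and 2 falling from ISP to DP, beside 63.9% and 70.6% of all genes called. Plxnd1, a semaphorin receptor of DP thymocytes, was 7.24-fold higher in DP than in ISP (19.9 against 2.74 RPKM, limma adjusted p = 4.47e-10). S1pr1, the receptor used by mature thymocytes to leave the thymus, was highest in ISP, 3.55-fold above CD25 and 9.09-fold above DP (limma adjusted p = 1.59e-05 and 2.97e-07). Gpr183, a receptor for oxysterols, was 35.9 RPKM in CD25 and 3.60 in ISP, 9.97-fold lower (limma adjusted p = 1.12e-09). The median log2 difference of the 7 was -0.17 from CD25 to ISP and -0.10 from ISP to DP, beside 0.01 for all genes.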

How the data were processed

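RNA of sorted thymocytes was sequenced in 12 libraries, extracted with a small-sample kit and prepared by Illumina protocols, per the labels' protocols. The authors deposited 1 table of RPKM values. BWA and GRCm38 are named in the submitters' processing notes, and the unit was inferred from the values. All libraries had equal medians of ratios, so the values had been scaled between libraries and medians over all genes lie near 0. How reads were counted, and whether strand was used, is not given in the sources used here. In each library the values are whole multiples of 1 read per gene, and 100% of the 169595 values above 0 came out whole within 0.02 reads.

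Groups follow the sample titles. Values were analysed as log2(RPKM + 1), so fold changes of low genes are understated in log2 differences, with limma 3.58.1 (trended variance) in R 4.3.3, on genes that reached 1 RPKM in 2 or more libraries. A fit of all 12 libraries gave the ISP, DP and stage comparisons, and CD25 genotypes used their 4 libraries. A gene was called at a Benjamini-Hochberg adjusted p under 0.05 over all genes tested. Folds are ratios of mean RPKM. The code was tested on simulated data. Alternatives were a pseudocount of 0.1, no filter, limma-voom on recovered reads scaled by medians of ratios, the replicate number as block, groups by library name, libraries with the same population in both names, all 12 libraries for CD25, and each library left out.

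The 9 receptors, the gene and marker lists and the motifs were chosen with earlier results of these data known. Beyond the members, named genes were the 3 most correlated genes of each member with a group mean of at least 5 RPKM, up to 4 genes of smallest p per list and comparison, the stage markers and Bcl6. Neighbours of Ccr9 and Cxcr6 and the marker genes Lyz2, Tyrobp, Gzma, Cd14 and Siglech were named after their values were seen. A gene that these rules would also name is not reported here.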

Additional observations from a re-analysis of the deposited data

Results flagged for a closer look

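Each receptor was checked in each population for 1 library far from the other 3, in 27 groups of 4, and chance flags about 1 group in 20. Ccr7 was 22.5 RPKM in the second ISP KO library, where the other 3 ISP libraries had 7.00 to 9.25. Cxcr5 was 0.954 RPKM in the second CD25 control library, on 29 reads, where the other 3 CD25 libraries had 0.613 to 0.667.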

How the results depend on the processing

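Of 19 calls of a receptor in the 6 comparisons other than the difference between KO effects, 3 were lost when 1 library was left out (Ccr9 and Ccr4 in DP KO, Ccr4 in DP minus ISP). With a pseudocount of 0.1, no filter, limma-voom or the replicate block, 2 were lost: the same Ccr4 calls, both with no filter. Dropping the filter also added calls of Ccr6 (DP minus ISP) and Cxcr5 (DP minus CD25), which the main fit did not test. Receptors with an unadjusted p of 0.05 or more were not followed across settings, except Ccr9 in the difference between KO effects. With 2 libraries a group, leaving 1 out assumes that the lone library varies like the others. DP values of Ccr8 and all values of Cxcr5 and Ccr6 are limited by their read numbers.

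Genes called for KO minus control in ISP numbered 40, and 8 with no filter, 181 by limma-voom, 5502 by library names and 6 to 56 with 1 library left out. In DP the count was 2476, and 5622 by library names and 844 to 2604 with 1 library left out. For the difference between KO effects it was 474, and 185 with no filter, 0 by library names and 64 to 1053 with 1 library left out. In CD25 it was 2, and 1 with a pseudocount of 0.1, 1 with no filter, 14 by limma-voom, 9 in the fit of all 12 libraries and 4 to 93 with 1 library left out. DP minus ISP gave 7983 genes, 5109 from the 4 libraries whose names agree on population, and 0 by library names. Counts for ISP minus CD25 and DP minus CD25 stayed within 1.5 times under all alternatives run. The cause of these changes was not tested, except that fewer libraries or more genes enter some settings.

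Grouping by library names turned log2 differences around. KO minus control became 1.71 for Ccr9 and -1.88 for Ccr7 in ISP. In DP it became 2.04 for Ccr9, -0.44 for Ccr4, -2.13 for Ccr2, 1.02 for Dock2, -0.93 for Cxcl10, -2.95 for Tyrobp, -2.76 for Gzma, 4.15 for Cd4, 1.13 for Lztfl1 and 1.03 for Fyco1. DP minus ISP became -0.02 for Ccr9, 0.04 for Ccr4, 0.05 for Cxcr3, -0.02 for Rgs14, 0.14 for Cxcl10, -0.06 for Cd4 and -0.03 for Lztfl1, and no receptor passed. DP minus CD25 became 0.73 for Ccr8 and 0.59 for Cxcr6. Within the 4 libraries whose title and library name give the same population, the DP minus ISP differences of 6 receptors still passed (all but Ccr4). For the difference between KO effects, Ccr9 became 0.33 by library names and -0.27 to 0.12 with 1 library left out.

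Replicate numbers did not pair the libraries: deviations of same-numbered libraries of the 2 genotypes correlated at -0.066 in CD25, -0.03 in ISP and 0.012 in DP over 11303 genes, and the highest of all 15 pairs of groups was 0.125, between ISP control and DP control. With the replicate number as a block, 42 genes were called in ISP, 2503 in DP and 3 in CD25 for KO minus control, 7235 for ISP minus CD25, 7988 for DP minus ISP, 8596 for DP minus CD25 and 538 for the difference between KO effects, and no receptor's call changed.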
